A study of Homo sapiens with 8 samples.

Results

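Integrins and laminins, the receptors and matrix proteins by which adherent cells hold to a basement membrane, were described across 8 arrays of MDA-MB-231 cells. Genes were taken by symbol from the array annotation: every gene named as an integrin alpha or beta chain or as a laminin alpha, beta or gamma chain that had a row of its own. This gave 35 of the 22109 genes tested. Neither ITGA1 nor LAMA3 had a row that carried its symbol alone, and both were not analysed here. MDA-MB-231, an established line from a pleural effusion, models triple-negative breast cancer, and the RNA of each sample was read on 1 Affymetrix Human Gene 2.1 ST array. The study asked how sublethal amounts of a plant extract change the transcriptome. The groups were 3 untreated controls, 3 low dose samples and 2 high dose samples, the treated ones collected at 24 h. The titles and protocol name the agent as an ethanol extract of wild yam (Dioscorea villosa) root, at 15 µg/mL (low) and 30 µg/mL (high). The source names disagree: low samples are there listed with 128 µg/mL Boswellia serrata extract, and high samples with 46 µg/mL 3-O-Acetyl-β-boswellic acid. What the treated cells received is therefore unsettled, and "low" and "high" serve only as group names here. The labels do not say whether the controls were given the ethanol vehicle, nor whether replicates came from separate cultures. The p-values therefore measure only the spread between these samples, which may be technical.

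An integrin is a pair of 1 alpha and 1 beta chain that spans the membrane, binds matrix outside the cell and links to actin through talin and kindlin inside it. The alpha chain largely sets the ligand: collagen, laminin, or proteins such as fibronectin and vitronectin that carry the RGD peptide motif. Laminins are secreted trimers of 1 alpha, 1 beta and 1 gamma chain that form the sheet of a basement membrane, and a further set of integrin chains is found mainly on leukocytes.

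Levels are the deposited log2 values. A difference is a difference of group means on that log2 scale, with its standard error (SE) from limma fitted to all genes and arrays. A gene was called at a Benjamini-Hochberg adjusted p under 0.05 over all 22109 genes. The brightness of a row also depends on its probes, so an order of levels between genes is no measure of transcript number. In bulk RNA, fewer cells that express a gene and less RNA per cell cannot be told apart. Control 3, low 3 and high 2 had lower upper quartiles over all genes (4.54 to 4.73) than the other arrays (4.80 to 4.94). Control 3 was the lowest control in 12 of the 14 brighter chain genes described next. It lay furthest below the mean of controls 1 and 2 in ITGB4, by 1.31. The part of these arrays in the results was not tested beyond the values given without them. The 7 markers expected in the line lay between 4.16 and 10.39, among them VIM (8.68 to 9.10), CD44 (7.63 to 8.85) and KRT18 (4.16 to 4.86). The hormone receptor genes ESR1 and PGR lay between 1.17 and 2.18. The epithelial marker CDH1 lay between 2.85 and 3.33, but EPCAM between 4.40 and 5.58.

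The chain genes were divided into a bright and a dim class at a mean log2 value of 4. A mean of at least 4 over the arrays was reached by 14 genes: ITGA2, ITGA3, ITGA5, ITGA6, ITGAV, ITGB1, ITGB3, ITGB4, ITGB5, LAMA5, LAMB1, LAMB2, LAMB3 and LAMC1, with values between 4.45 and 9.59. The other 21 genes lay between 1.10 and 4.07, among them all 7 leukocyte chains. The brightest of the dim class were ITGB8 (3.62 to 4.07), which pairs with the alpha V chain, and ITGA10 (2.92 to 3.71), a collagen-binding chain of cartilage. Without a background measure in the table, dim values do not show whether a transcript was present.

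**Figure D1:**
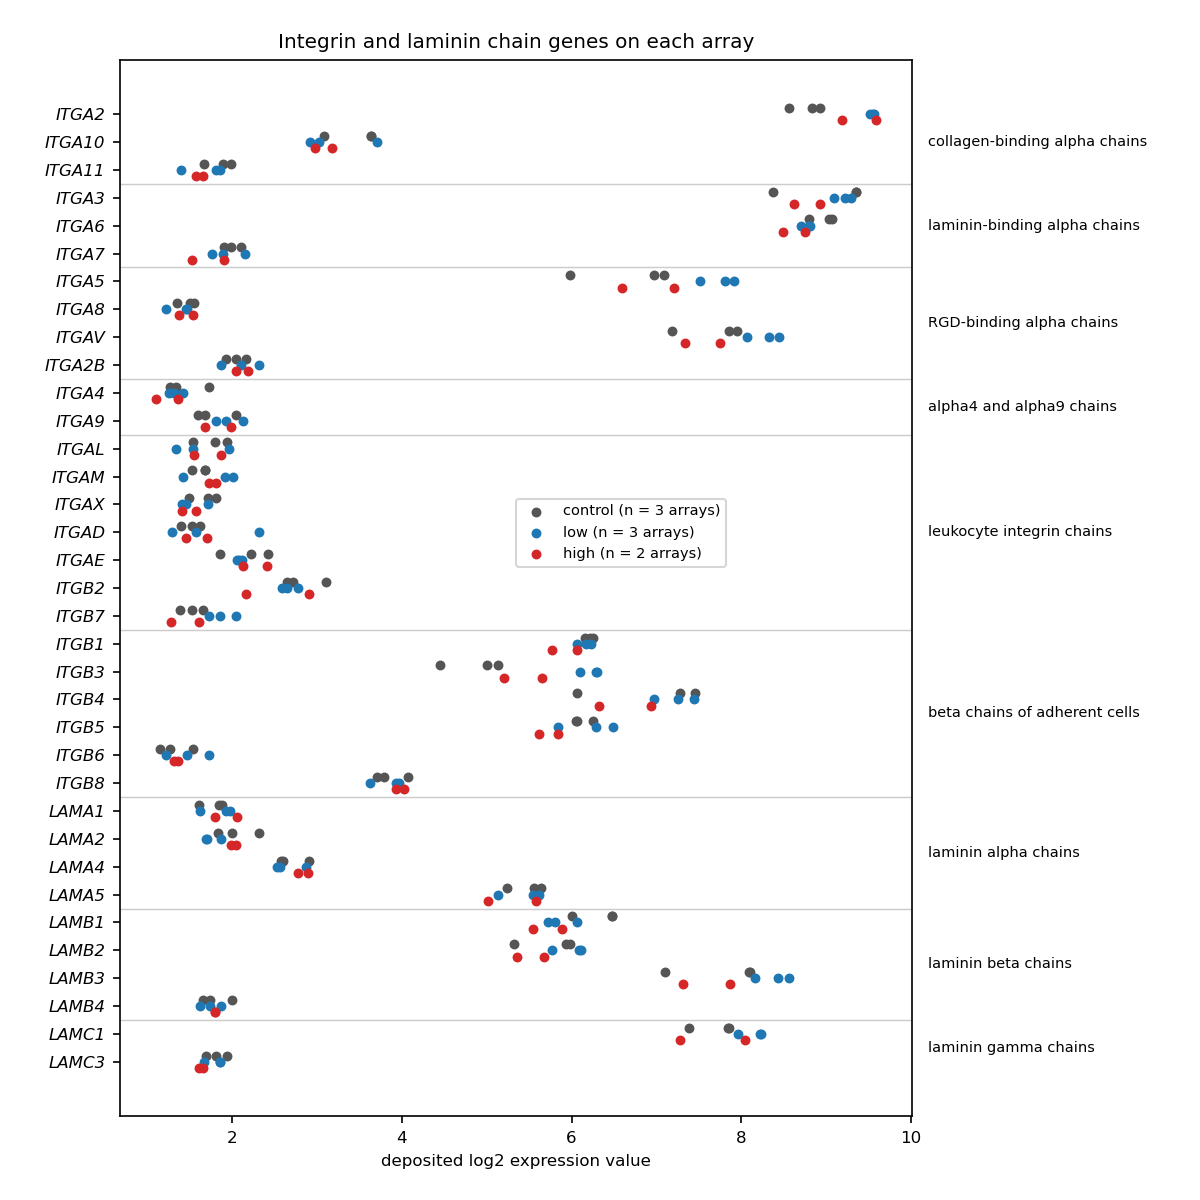
Deposited log2 expression value (x axis) of each of the 35 chain genes (rows, grouped by role) on every array; each point is 1 array, coloured by group. The 7 leukocyte chains lie between 1.28 and 3.10 on every array, whereas ITGA2, ITGA3 and ITGA6 lie between 8.38 and 9.59.

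At the low dose 2 of the 35 chain genes rose and none fell. ITGB3, the integrin beta chain that pairs with alpha V to bind vitronectin and fibronectin, rose 2.58-fold, a log2 difference of 1.37 ± 0.20 (SE, 3 arrays in each group, limma adjusted p = 0.00539). ITGA2, the alpha chain of the main collagen receptor, rose by 0.77 ± 0.17 (adjusted p = 0.0308), or 1.70-fold. Over all genes 3.00% were called in this comparison, 1.19% as higher and 1.81% as lower, against 5.71% of the chain genes. At an unadjusted p under 0.05, 5 chain genes were higher (ITGA2, ITGA5, ITGAV, ITGB3 and LAMB3) and 1 lower (LAMB1), where 5.38% and 8.77% of all genes were. The median difference was -0.02 over the 35 chain genes and -0.04 over all genes.

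Among the beta chains ITGB3 stood at 5.00, 5.13 and 4.45 in the controls, at 6.29, 6.30 and 6.10 at the low dose and at 5.65 and 5.20 at the high dose. All low arrays lay above all others, and both high arrays lay between the controls and the low arrays with no overlap. The high dose difference was 0.56 ± 0.23 (95% interval 0.06 to 1.07, not adjusted; adjusted p = 0.286). It was 0.36 without control 3 and 0.34 without high 1, and with quantile normalization it was 0.77 and called (adjusted p = 0.0466). The call at the low dose held in all 18 other settings tried, with differences from 1.17 (without control 3) upward. Among these, comparing only the 2 groups and leaving out either high array are the same fit. A second row that carries both EFCAB13 and ITGB3 as symbols cannot be assigned to either gene. It lay between 3.24 and 4.14 in the controls and between 2.96 and 3.38 at the low dose, and these arrays overlapped.

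ITGB1, the common beta chain that serves most matrix-binding alpha chains, stood at 6.25, 6.16 and 6.22 in the controls, at 6.23, 6.17 and 6.06 at the low dose and at 6.06 and 5.77 at the high dose. Control and low arrays overlapped (difference -0.06, 95% interval -0.39 to 0.27), and the high arrays lay below the controls (-0.29 ± 0.17, adjusted p = 0.445). ITGB4, the beta chain of the hemidesmosome receptor, had 7.28, 7.45 and 6.06 in the controls, 7.25, 7.44 and 6.97 at the low dose and 6.94 and 6.32 at the high dose. It had the widest control spread of the 35 genes (SD 0.76, n = 3), with control 3 lowest, and its low dose interval ran from -0.43 to 1.01. ITGB5, a further partner of alpha V and a vitronectin receptor chain, had 6.05, 6.25 and 6.06 in the controls, 6.29, 6.49 and 5.84 at the low dose and 5.84 and 5.62 at the high dose. Its high arrays lay below the controls (-0.39 ± 0.21, adjusted p = 0.419). ITGB6, an epithelial partner of alpha V, stayed between 1.15 and 1.72 on every array.

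ITGA2 stood at 8.93, 8.84 and 8.57 in the controls, at 9.57, 9.55 and 9.52 at the low dose and at 9.59 and 9.19 at the high dose. Both treated groups lay above every control, and the 3 low arrays differed by an SD of 0.03. The high dose difference was 0.61 ± 0.18 (95% interval 0.21 to 1.02, not adjusted; adjusted p = 0.168). It was called with quantile normalization (0.74, adjusted p = 0.0441). The call at the low dose was lost when any 1 of the 6 control and low arrays was left out, with adjusted p-values from 0.0625 (without control 1) to 0.120 (without low 2) and differences from 0.66 to 0.84. In between were 0.0809 without control 2, 0.0647 without control 3, 0.113 without low 1 and 0.0724 without low 3. The other collagen-binding chains, ITGA10 and ITGA11, were dim and had low dose differences of -0.24 and -0.16.

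ITGA5, the alpha chain of the classical fibronectin receptor, stood at 7.09, 6.97 and 5.98 in the controls, at 7.81, 7.91 and 7.51 at the low dose and at 7.21 and 6.60 at the high dose. Low arrays lay above all controls, but control 3 lay far below the other controls. The low dose difference was 1.07 ± 0.28 (adjusted p = 0.0758), and 0.72 ± 0.21 without control 3 (adjusted p = 0.106). With the replicate number as a block, which the control and low arrays may share, the difference had an adjusted p of 0.0153 and was called. ITGAV, the alpha V chain that pairs with ITGB3 and ITGB5, stood at 7.95, 7.86 and 7.18 in the controls, at 8.45, 8.33 and 8.07 at the low dose and at 7.75 and 7.34 at the high dose. Its low arrays lay above all controls, with a difference of 0.62 ± 0.22 (adjusted p = 0.208) that was 0.38 ± 0.19 without control 3. This difference was called with array weights (0.51 ± 0.15, adjusted p = 0.0471). The high arrays of ITGAV lay within the range of the controls. The dim RGD-binding chains were ITGA8 (1.22 to 1.55) and ITGA2B, the platelet partner of ITGB3 (1.87 to 2.32).

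**Figure D2:**
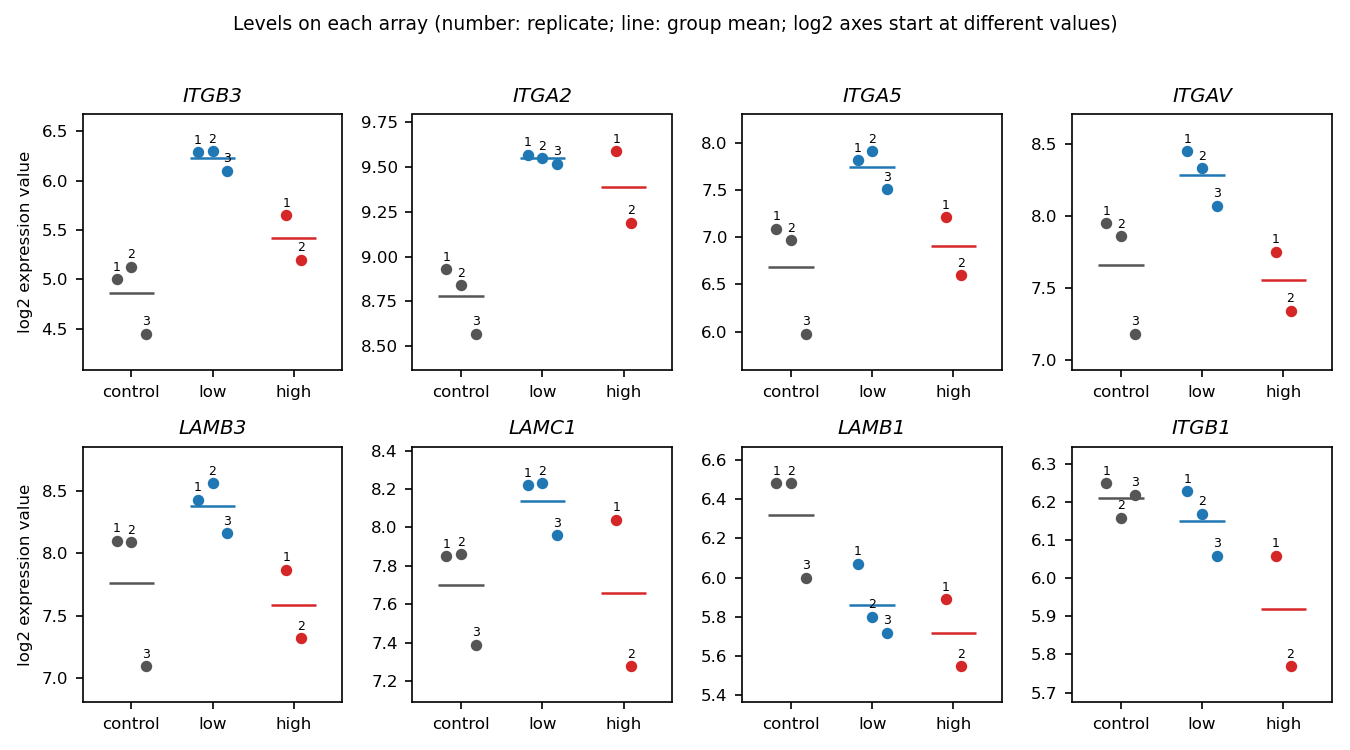
Deposited log2 value (y axis) of 8 chain genes by group; each point is 1 array with its replicate number, lines are group means, and each panel has its own log2 range. For ITGB3 the low arrays (6.10 to 6.30) and the high arrays (5.20 and 5.65) do not overlap each other or the controls (4.45 to 5.13), while ITGB1 stays between 5.77 and 6.25.

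The sequence before the start site is shown for the called collagen receptor gene ITGA2, for ITGA5, which had the largest difference among those not called, and for LAMB1, the bright gene whose mean was lowest against control at both doses. Each is the 250 bases before the annotated start, 5′ to 3′ on the strand of the gene, from RefSeq (GRCh38.p14). They lie at chr5:52989102-52989351 (plus strand) for ITGA2, chr12:54419267-54419516 (minus strand) for ITGA5 and chr7:108003162-108003411 (minus strand) for LAMB1. Capitals mark matches on either strand to the Sp1 motif GGGCGG and the TEAD motif GGAATG. The AP-1 motif TGANTCA was searched too and has no match in these 3 windows.
ITGA2: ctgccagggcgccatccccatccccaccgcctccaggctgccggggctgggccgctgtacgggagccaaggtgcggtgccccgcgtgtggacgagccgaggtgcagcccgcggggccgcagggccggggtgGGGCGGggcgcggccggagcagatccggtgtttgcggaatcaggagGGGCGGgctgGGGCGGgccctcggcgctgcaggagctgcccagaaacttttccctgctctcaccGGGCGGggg
ITGA5: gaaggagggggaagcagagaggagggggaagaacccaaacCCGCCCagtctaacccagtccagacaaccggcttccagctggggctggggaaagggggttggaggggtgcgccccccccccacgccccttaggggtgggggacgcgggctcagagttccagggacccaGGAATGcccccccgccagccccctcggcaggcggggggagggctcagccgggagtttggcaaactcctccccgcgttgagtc
LAMB1: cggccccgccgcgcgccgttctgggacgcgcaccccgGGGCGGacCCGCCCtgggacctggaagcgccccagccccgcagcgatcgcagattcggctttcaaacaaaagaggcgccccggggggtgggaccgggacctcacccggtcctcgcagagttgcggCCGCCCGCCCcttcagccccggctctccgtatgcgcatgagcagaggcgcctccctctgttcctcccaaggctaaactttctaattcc
The ITGA2 and LAMB1 windows hold 4 Sp1 matches each, of which 2 in LAMB1 overlap. The ITGA5 window holds 1 Sp1 match and 1 TEAD match. Of 35116 such windows over all genes, 42.6% hold the Sp1 motif, 11.9% the TEAD motif and 6.57% the AP-1 motif. Windows were found for 24 of the 35 chain genes (31 windows), of which 16, 4 and 1 hold these motifs, the AP-1 match being in LAMB3. ITGB3 is among the 11 genes that were not matched. A match is only a description of the letters.

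Among the laminin-binding alpha chains, ITGA3 stood at 9.35, 9.35 and 8.38 in the controls, at 9.23, 9.29 and 9.09 at the low dose and at 8.93 and 8.62 at the high dose. All treated arrays lay within the range of the controls, whose lowest array was control 3. ITGA6, which pairs with ITGB4 in hemidesmosomes and with ITGB1 elsewhere, stood at 9.07, 9.03 and 8.80 in the controls, at 8.81, 8.80 and 8.70 at the low dose and at 8.75 and 8.49 at the high dose. Its high arrays lay below the controls, with a difference of -0.35 ± 0.17 (adjusted p = 0.379), and the low dose interval was -0.54 to 0.13. ITGA7, a chain of muscle, was dim (1.53 to 2.15), as were ITGA4 and ITGA9 (1.10 to 2.12), which bind fibronectin, VCAM1 and tenascin.

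None of the 7 leukocyte chains passed the test at either dose. ITGB2, the common beta chain of leukocytes, stood at 2.71, 2.65 and 3.10 in the controls, at 2.64, 2.59 and 2.78 at the low dose and at 2.90 and 2.16 at the high dose. Its partner ITGAL of lymphocytes had 1.54, 1.79 and 1.94, then 1.34, 1.96 and 1.54, then 1.87 and 1.55, in the same order. ITGAM of macrophages and neutrophils had 1.53, 1.68 and 1.68 in the controls, 1.42, 1.91 and 2.01 at the low dose and 1.73 and 1.81 at the high dose. ITGB2 and ITGAL overlapped between all groups, and the ITGAM high arrays lay above the controls by 0.14 on average (adjusted p = 0.793). ITGAX, a chain of dendritic cells and macrophages, had 1.49, 1.81 and 1.71 in the controls, 1.71, 1.41 and 1.45 at the low dose and 1.41 and 1.57 at the high dose. ITGAE, a chain of tissue lymphocytes that binds E-cadherin, had 2.22, 1.86 and 2.42, then 2.11, 2.06 and 2.08, then 2.13 and 2.41. Its beta partner ITGB7 had 1.52, 1.66 and 1.38 in the controls, 2.04, 1.73 and 1.86 at the low dose and 1.61 and 1.28 at the high dose. Its low arrays lay just above the controls (0.35 ± 0.16, adjusted p = 0.365), while ITGAX and ITGAE overlapped. ITGAD, the remaining leukocyte chain, lay between 1.29 and 2.31. The 13 leukocyte markers measured lay between 0.94 and 3.24 on every array, with means per array of 1.80 to 1.89 in the controls, 1.84 to 2.00 at the low dose and 1.83 to 1.86 at the high dose. PTPRC, the pan-leukocyte marker CD45, lay between 0.94 and 1.40, and none of the 13 was called in any comparison. The 7 platelet markers measured had means per array of 2.36 to 2.38 in the controls, 2.32 to 2.42 at the low dose and 2.15 to 2.22 at the high dose, and none was called. The 7 endothelial markers measured lay between 1.27 and 6.69, the brightest being ESAM (5.81 to 6.69), and none was called.

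No laminin chain was called at either dose in the reported fit. LAMB3, a beta chain of epithelial laminin, stood at 8.10, 8.09 and 7.10 in the controls, at 8.43, 8.56 and 8.16 at the low dose and at 7.87 and 7.32 at the high dose. Its low arrays lay above all controls by 0.62 ± 0.27 on average (adjusted p = 0.321), and by 0.29 ± 0.20 without control 3. LAMC1, the gamma chain of most laminins, had 7.85, 7.86 and 7.39 in the controls, 8.22, 8.23 and 7.96 at the low dose and 8.04 and 7.28 at the high dose. Its low dose difference was 0.44 ± 0.22 (adjusted p = 0.412), and 0.28 ± 0.22 without control 3. The high arrays spanned more than the range of the controls.

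LAMB1, the beta chain of the widespread embryonic and vascular laminins, differed the other way. It stood at 6.48, 6.48 and 6.0 in the controls, at 6.07, 5.80 and 5.72 at the low dose and at 5.89 and 5.55 at the high dose. Both high arrays lay below every control (-0.60 ± 0.21, adjusted p = 0.225), while 1 low array lay above control 3 (-0.46 ± 0.19, adjusted p = 0.283). With the replicate block the high dose difference was called (-0.72 ± 0.17, adjusted p = 0.0458), although the high arrays were not taken as paired. With array weights the low dose difference was called (-0.55 ± 0.14, adjusted p = 0.0226). Without control 3 the high and low dose differences were -0.76 ± 0.20 (adjusted p = 0.0517) and -0.62 ± 0.18 (adjusted p = 0.104). LAMA5, an alpha chain of epithelial and vascular laminins, had 5.56, 5.64 and 5.24 in the controls, 5.54, 5.62 and 5.13 at the low dose and 5.58 and 5.01 at the high dose, with all groups overlapping. LAMB2, the beta chain of mature basement membranes, lay between 5.32 and 6.11. LAMA1, LAMA2, LAMA4, LAMB4 and LAMC3 were dim, between 1.61 and 2.90.

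At the high dose, compared with the same 3 controls, none of the 35 chain genes was called by limma. Of all genes 0.814% were, 0.425% as higher and 0.389% as lower. At an unadjusted p under 0.05, 2 were higher (ITGA2 and ITGB3) and 1 lower (LAMB1), against 3.03% and 11.4% of all genes. The high arrays did not overlap with the controls for 3 higher chain genes (8.57%, against 7.07% of all genes) and 7 lower ones (20%, against 22.9%). These shares were close to those of all genes. The lower ones were ITGA6, ITGA7, ITGA11, ITGB1, ITGB5, LAMB1 and LAMC3. The median difference was -0.07 over the chain genes and -0.12 over all genes, and it ranged from -0.60 (LAMB1) to 0.61 (ITGA2).

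**Figure D3:**
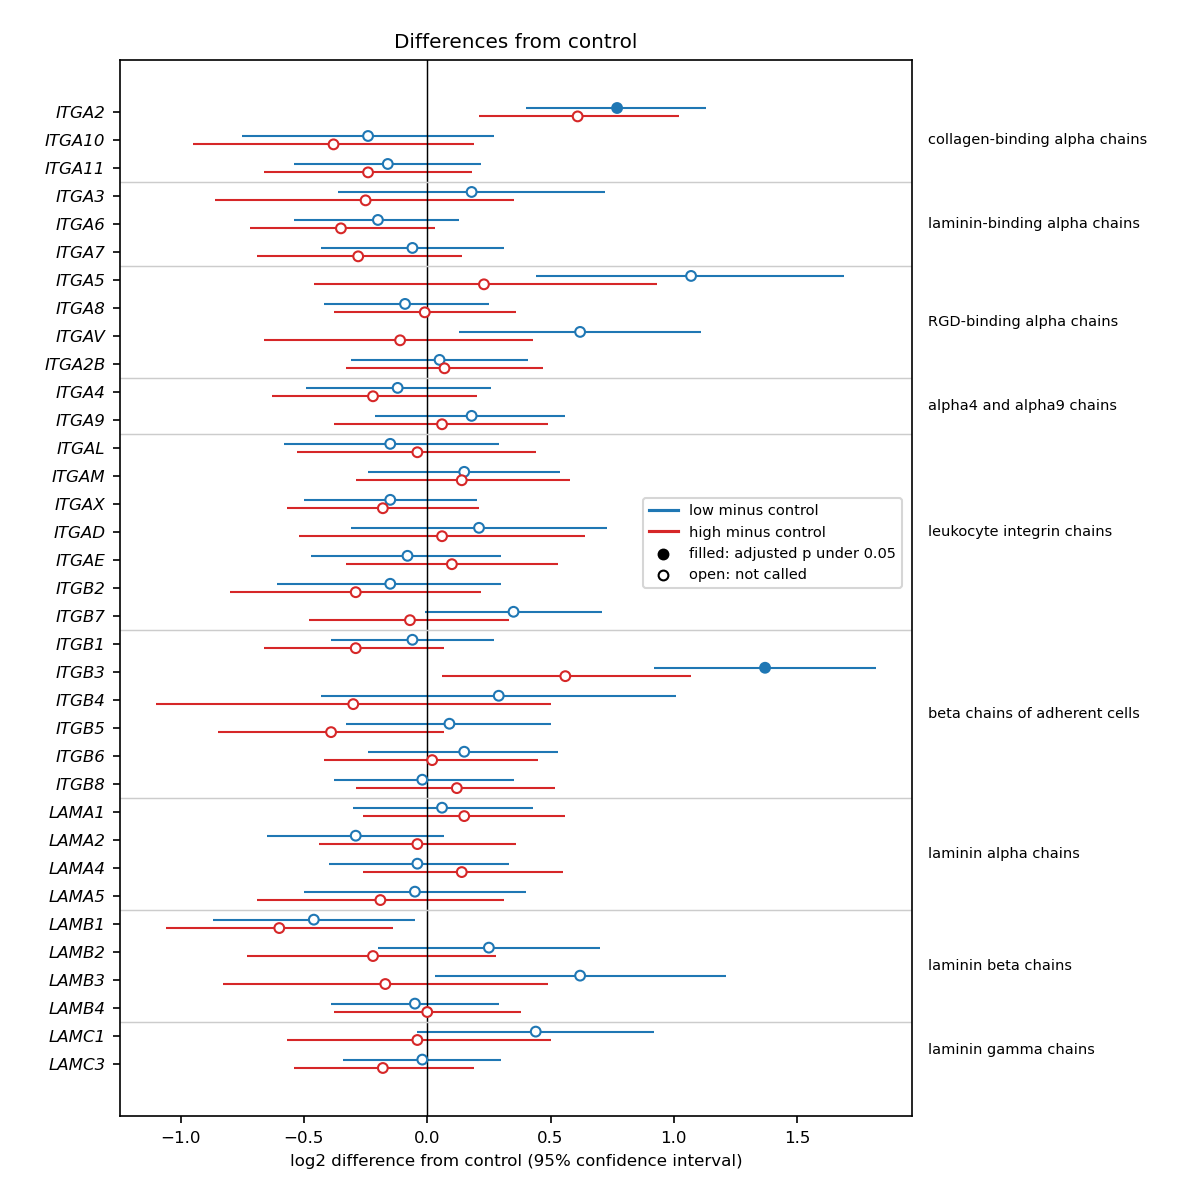
Log2 difference from control (x axis) of each chain gene (rows) at the low and the high dose, with unadjusted 95% confidence intervals; filled points passed an adjusted p of 0.05. Only ITGB3 (1.37) and ITGA2 (0.77) at the low dose are filled.

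The high dose mean was below the low dose mean in all 14 bright chain genes, although single high arrays lay above low arrays in some of them, such as ITGA2. No chain gene was called in this comparison, in which limma called 1 of all 22109 genes (0.00452%). The median difference of the 14 genes was -0.47, and -0.14 over the 7550 genes of all that had a mean of at least 4. The largest were ITGA5 (-0.83 ± 0.32, 95% interval -1.53 to -0.14, adjusted p = 0.513), ITGB3 (-0.81 ± 0.23, -1.31 to -0.30, adjusted p = 0.373), LAMB3 (-0.79 ± 0.30, -1.45 to -0.13) and ITGAV (-0.74 ± 0.25, -1.29 to -0.19). At an unadjusted p under 0.05, 6 of the 35 chain genes were lower and none higher, against 6.10% and 2.56% of all genes. The arrays did not overlap for 9 lower chain genes (25.7%, against 16.7% of all genes) and for 2 higher ones (5.71%, against 8.77%), ITGAE and LAMA2. ITGA2 differed by -0.15 ± 0.18 (95% interval -0.56 to 0.25), and LAMA5, LAMB1 and ITGA6 by -0.14 each. Without high 2 the differences of ITGA2, LAMA5 and LAMB1 were above 0 (0.05, 0.15 and 0.03). Of the 2 high arrays, high 2 was the dimmer on the 14 genes, with a median of 6.46 against 7.07 in high 1 and 7.24 to 7.67 in the low arrays.

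At the low dose 10 of the 14 bright chain genes had a difference above 0, with a median of 0.27, where all 7550 genes of that brightness had -0.08. The median bright chain gene stood at 6.14 in control 3, against 7.18 and 7.21 in the other controls. Without control 3 the median difference was 0.05, and -0.14 over all genes of that brightness. The low arrays did not overlap with the controls for 7 higher chain genes (20%, against 7.03% of all genes) and no lower one (against 13.0%). These were ITGA2, ITGA5, ITGAV, ITGB3, ITGB7, LAMB3 and LAMC1.

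**Figure D4:**
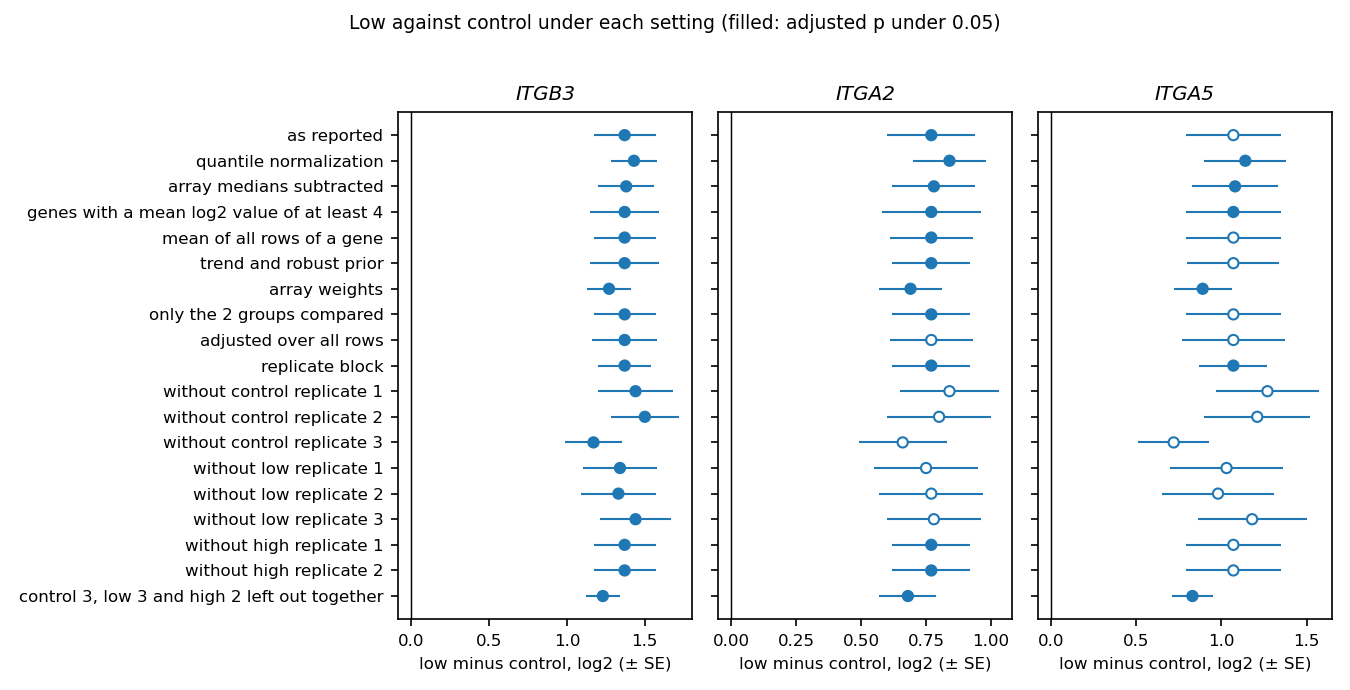
Low minus control difference on the log2 scale (x axis, ± SE) of ITGB3, ITGA2 and ITGA5 under the reported fit and 18 other settings (rows); filled points passed an adjusted p of 0.05. ITGB3 is filled in every row, ITGA2 loses the call in 7 rows and ITGA5 gains it in 6. The rows for only the 2 groups compared and for leaving out either high array are the same fit.

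Other genes of adhesion mostly did not pass the test. Of 116 measured genes of 6 lists, 4 were higher and 2 lower at the low dose, and 1 was higher and 1 lower at the high dose. Thus 6 of the 116 were called at the low dose and 2 at the high dose, where 3.00% and 0.814% of all genes were. With the replicate block 7 were higher and 3 lower at the low dose, and with quantile normalization 10 and 3. At the high dose 1 was higher and 14 lower with the replicate block, 2 and 12 with array weights, 2 and 14 without control 3, and 5 and 16 without control 3, low 3 and high 2. Quantile normalization gave 4 higher and 1 lower there, and subtracting array medians 2 and 2. Of 26 ligands, ICAM1, the counter-receptor of the leukocyte integrins, was at 6.13, 6.49 and 5.04 in the controls, at 7.66, 8.10 and 7.37 at the low dose and at 7.28 and 6.85 at the high dose. All treated arrays lay above the controls, and ICAM1 rose at the low dose by 1.82 ± 0.33 (adjusted p = 0.0133), or by 1.40 without control 3. The call was lost without low 1 (adjusted p = 0.0502) or low 2 (0.0676). COL1A1, a chain of the collagen that ITGA2 binds, was at 3.44, 3.24 and 3.16 in the controls, at 4.08, 4.12 and 3.91 at the low dose and at 3.40 and 3.11 at the high dose. It rose at the low dose (0.76 ± 0.16, adjusted p = 0.0262), the high dose difference was -0.03, and high minus low was not called (-0.78 ± 0.18). The mean of COL1A1 over the arrays was under 4, where values do not show whether a transcript was present. CCN2, a matricellular integrin ligand, was lower at the low dose (-1.34 ± 0.28, adjusted p = 0.0276). Its high dose difference was -1.42 (adjusted p = 0.0715), which was called in 6 of the 18 other settings, among them the replicate block (-1.67 ± 0.23, adjusted p = 0.00944) and the fit without control 3 (-1.81 ± 0.20, 0.000971). The COL1A1 call was lost without any 1 of controls 1, 2 and 3 and low 1 and 2 (adjusted p from 0.0508 to 0.127).

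Inside the cell, 1 of 25 focal adhesion linker genes was called at each dose, the LIM protein gene AJUBA, with 5.83, 5.95 and 5.42 in the controls, 4.84, 4.93 and 4.58 at the low dose and 4.53 and 4.12 at the high dose. It fell by 0.95 ± 0.19 at the low dose (adjusted p = 0.0215) and by 1.42 ± 0.21 at the high dose (adjusted p = 0.0163). Of 22 signalling genes, RHOB, a small GTPase, was the only one called, at both doses. It rose by 2.96 ± 0.15 at the low dose (adjusted p = 7.21e-06) and by 2.74 ± 0.17 at the high dose (5.03e-05), and kept both calls in all 18 other settings. Of 15 tetraspanin and surface partner genes, ADAM17, a sheddase that binds integrins, rose at the low dose (0.85 ± 0.19, adjusted p = 0.0333). At the low dose the AJUBA and CCN2 calls were lost without any 1 of controls 1 and 2 and the low arrays (adjusted p from 0.0623 to 0.0881 for AJUBA and from 0.0797 to 0.106 for CCN2). The ADAM17 call was lost without any 1 of controls 1, 2 and 3 and low 1 and 2 (0.0592 to 0.142). At the high dose the AJUBA call was lost without control 1, control 2 or either high array (0.069 to 0.184). None of 15 basement membrane partner genes and 13 other laminin receptor and hemidesmosome genes was called at either dose. The list medians lay between 0.05 and 0.18 at the low dose, beside -0.04 over all genes. At the high dose they lay between -0.34 and -0.12, beside -0.12 over all genes. Of the 116 list genes, 79 had a mean of at least 4. All genes of that brightness had medians of -0.08 at the low dose and -0.24 at the high dose. The high dose list medians lay on both sides of that -0.24, and the low dose ones above that -0.08.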

How the data were processed

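Per the submitters' processing notes, the authors used the Transcriptome Analysis Console. Summarization, normalization and software version: not given in the sources used here. Values as deposited by the authors were taken as log2 expression values, as inferred from their range, and used unchanged. Of 53617 rows, 23558 carried 1 gene symbol, 2155 several and 27904 none here. The row with the highest mean was kept for the 618 genes with several rows. No chain gene had more than 1 such row.

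Differences were fitted with limma 3.58.1 in R 4.3.3 (1 mean per group, eBayes, 5 residual and 6 prior degrees of freedom) over 8 arrays and 22109 genes, and the scripts were tested on simulated data. The number of arrays limits the precision. The members and lists were chosen with earlier results of these data known. Values by array are given for called chain genes, for those with non-overlapping arrays and a difference of at least 0.5 from control, and for a fixed set of receptor, laminin and leukocyte chains. Up to 4 called genes per adhesion list, comparison and direction were named, by size of difference. Alternatives changed normalization, filter, row choice, prior, array weights, block, adjustment and arrays left out.

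The deviations of same-numbered control and low arrays from their group means correlated at 0.103, 0.153 and 0.203 across genes. The numbers may therefore pair these arrays. Control 1, however, correlated with low 2 at 0.122, and control 3 and low 3 shared a lower upper quartile. These values do not settle a pairing. The reported fit has no replicate block, which was fitted as an alternative. The correlations of high arrays with same-numbered controls were 0.094 and -0.049, and with same-numbered low arrays 0.214 and -0.177. The 2 high arrays deviate from their mean by equal and opposite amounts, so these values cannot decide a pairing. High arrays were not taken as paired.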

Additional observations from a re-analysis of the deposited data

How the results depend on the processing

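Each result was refitted under 17 alternatives and 1 chosen after seeing the data, which left out control 3, low 3 and high 2 together and so kept 1 high array. For low against control, comparing only the 2 groups and leaving out either high array are the same fit. At the low dose the 2 called chain genes became 5 with array weights (4 higher, 1 lower) and 1 when adjusted over all rows. They became 1 when any 1 control or low array was left out. The count was 3 in further settings, among them quantile normalization, array medians subtracted, genes with a mean of at least 4 and the replicate block. At the high dose the count of 0 became 2 with quantile normalization, 1 with the replicate block (LAMB1, lower) and 1 with the 3 arrays left out, and stayed at 0 when 1 array was left out. The count of high against low stayed at 0 throughout. Of the 116 genes of the adhesion lists, the 6 called at the low dose became 13 with quantile normalization, 15 with array weights, 1 adjusted over all rows, 10 with the replicate block, 10 with the 3 arrays left out, and 1 to 6 without 1 array. The 2 at the high dose became 5 with quantile normalization, 4 with array medians subtracted, 4 among genes with a mean of at least 4, 14 with array weights, 1 with only the 2 groups compared, 1 adjusted over all rows, 15 with the replicate block, 21 with the 3 arrays left out, and 1 to 16 without 1 array (16 without control 3). At the low dose the list count was also 8 with array medians subtracted, and 7 both among genes with a mean of at least 4 and with another prior. The cause of these changes was not tested. Adjusting over all rows tests more rows and also fits limma to all of them, which changed the SE of single genes. Where 1 high array remained, it was assumed to vary like the other groups. Of the 57 differences of named chain genes, no called one changed sign. Of the 55 not called, 24 changed sign under at least 1 setting and 6 were called under at least 1. Besides ITGA5 and LAMB1, the replicate block changed no call of a chain gene. Quantile normalization moved the median difference over all genes at the high dose from -0.12 to -0.02. The table holds no signal over background, so a limit for dim genes cannot be given.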
